A study of Drosophila melanogaster and Drosophila arizonae and Drosophila mojavensis with 18 samples.

Results

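The comparison described here is between the sets of libraries labelled S1 and S2 of *Drosophila mojavensis*, a cactus-breeding fly. Its members were the 6 *D. mojavensis* libraries, of 18 in the whole series, chosen by the set number in their labels, 3 from S1 and 3 from S2. Each set held 1 library from larvae on each of 3 diets, so every S2 library was read against the S1 library of the same diet. Whole larvae in the third instar had been kept for 24 h on a high-protein, low-sugar diet (HPLS), an equal-protein-sugar diet (EPS) or a low-protein, high-sugar diet (LPHS), made from yeast and sucrose. Each RNA sample came from larvae pooled from a vial, and the labels give no genotype, transgene or other treatment that separates the sets. The labels carry the set number and do not say what S1 and S2 stand for. The methods name a pair of isofemale strains from La Paz for this species, each descended from a single wild female, but no source used here ties a strain to a set, so strain, vial and library batch cannot be told apart.

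The larval stage in question feeds and grows. Its fat body, which combines roles of liver and adipose tissue, makes storage hexamerins, proteins released into the blood and broken down for amino acids at metamorphosis. Flies on a cactus diet meet little simple sugar and many plant toxins, and cytochromes P450, glucuronosyltransferases and esterases are the enzyme families that modify such compounds.

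The libraries held 6819502 to 9910492 fragments assigned to genes, and the 3 S1 libraries (8808210 to 9910492) were all deeper than the 3 S2 libraries (6819502 to 8354866). Values are given as normalized counts, the deposited values scaled between libraries, and 9724 of 15180 genes had enough fragments to be tested. GI23074, the ortholog of the larval storage protein Lsp1β of *D. melanogaster*, stood between 140023 and 441694 normalized counts in the 6 libraries. Among genes with at least 10 fragments in a library, 4 had more than 90% of their normalized counts in the S2 library on HPLS, and 0 had so in any other library. The 18S ribosomal RNA also differed: it was at 9204, 6347 and 6204 normalized counts in S1 on HPLS, EPS and LPHS, and at 34713, 15800.4 and 6889 in S2. Its difference shrank from 1.92 (log2) on HPLS to 0.15 on LPHS, and its part in the differences of other genes was not tested. The sets overlapped, and the fitted difference was 1.13 (log2; limma, adjusted p = 0.0451). By the methods of the study the libraries were selected for polyadenylated mRNA, so these counts need not follow the ribosomal RNA content of the larvae.

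Across all genes the sets differed in many genes by small amounts. Of the 9724 tested genes, 1288 (13.2%) were called, that is they had an adjusted p of at most 0.05 for S2 minus S1 by limma with the diet in the model. Of these, 599 (6.16% of the tested genes) were higher in S2 and 689 (7.09%) were lower. All 1288 had the same sign of difference in HPLS, EPS and LPHS. The test sets the mean of these differences against their spread, so a shared sign largely follows from the call. The median absolute difference was 0.24 (log2) over all tested genes and 0.73 over the called genes, which is 1.66-fold. Differences of at least 2-fold were found in 351 called genes (185 higher in S2 and 166 lower), of at least 4-fold in 51 and 34, and of at least 8-fold in 19 and 16. The p-values measure only the spread between these libraries. The direction of the calls depended on whether the values were scaled between libraries. With RLE, another scaling, 44.5% of the called genes were higher in S2, against 46.5% as reported. Without scaling the median gene stood at -0.26 (log2) rather than 0.01, 2951 genes were called and 10.5% of them were higher in S2. Such values keep the differences in library totals, which were 8634910 to 9671320 in S1 and 7015180 to 7814740 in S2 as deposited. The count also rested on single libraries, since leaving out either library of a diet removes that diet from the comparison of sets. It was 2153 and 2123 without the S1 or the S2 library on HPLS, and 390 and 537 without the S1 or the S2 library on EPS.

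**Figure D1:**
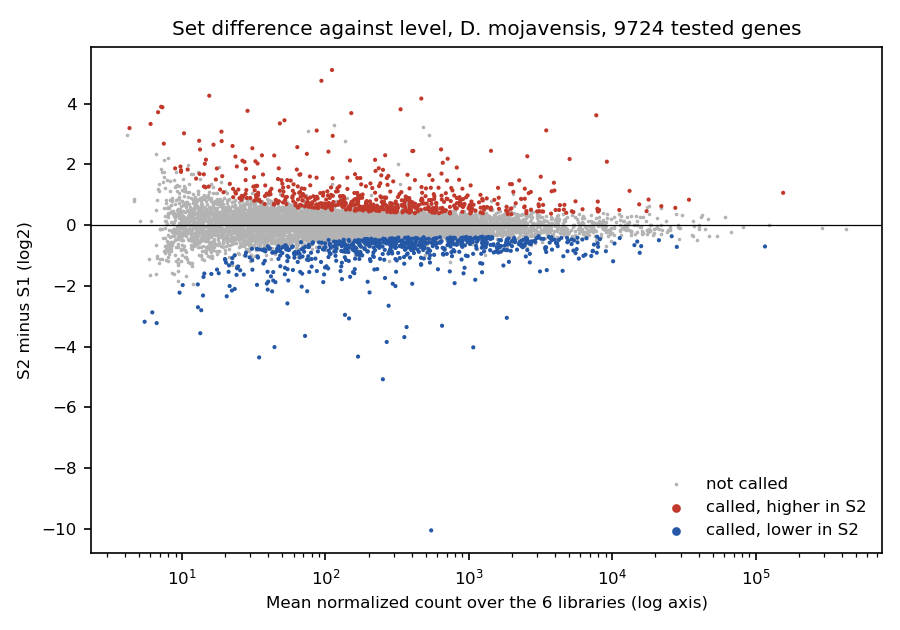
Each point is a tested gene, with its mean normalized count over the 6 libraries on a logarithmic x axis and its fitted S2 minus S1 difference (log2) on the y axis. Grey genes were not called, the 599 red genes were called higher in S2 and the 689 blue genes lower, and the single point near -10 is the gene absent from every S2 library.

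The share of called genes rose with the level of expression. When the tested genes were divided into 5 equal groups by mean level, 9.1% were called in the lowest group, 10.2%, 12.2% and 13.7% in the next groups, and 21% in the highest. In the lowest group 99 called genes were higher in S2 and 78 lower, whereas in the highest 157 were higher and 252 lower. The median difference of all genes went from 0.07 to -0.06 (log2) between these groups. Fragments per gene, and so the precision of a difference, rise across these groups, and their part in the shares was not tested.

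Within single diets the sets differed by like amounts. The median absolute S2 minus S1 difference was 0.27 (log2) on HPLS, 0.29 on EPS and 0.31 on LPHS, and 691, 726 and 738 tested genes differed by at least 2-fold in these diets. The sign was the same in the 3 diets for 5078 tested genes (52.2%), 2631 of them higher in S2 and 2447 lower. A difference of at least 2-fold in each diet was found in 196 genes (2.02%), 106 higher and 90 lower. It reached 4-fold in each diet in 39 genes, 21 higher and 18 lower. The 3 values of S1 and the 3 of S2 did not overlap in 2927 tested genes (30.1%), with S2 above S1 in 1546 (15.9%) and below it in 1381 (14.2%). For a single gene, 3 libraries against 3 cannot give an exact two-sided permutation p below 0.1.

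Complete presence or absence was rare. Only 1 gene was at 0 fragments in every library of a set and at 10 or more in every library of the other. It was FBgn0140265, which has no symbol in the tables used here. It had 941, 830.0 and 1502 normalized counts in S1 on HPLS, EPS and LPHS, and 0 in each S2 library. Against the floor of 3 fragments in the S2 library of the same diet, the S1 library was at least 304-fold higher on HPLS, 229-fold on EPS and 469-fold on LPHS (limma for the set, adjusted p = 5.39e-06). The sets did not overlap, and LPHS minus HPLS was 0.34 (log2) in this gene and not called (limma, adjusted p = 0.544). At a lower requirement of 5 fragments per library, 3 genes were on in S2 only and 1 in S1 only. At 10 fragments, with up to 3 fragments in total allowed in the set called off, the counts were 1 and 2. In all, 463 genes were at 0 in S1 and seen in S2, and 462, FBgn0140265 among them, the reverse. Their median total was 1 fragment in each direction, and 41 in each direction were seen in all 3 libraries of the other set.

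Several genes were close to this pattern without reaching it. FBgn0143056 had 554, 499 and 412 normalized counts in S1 on HPLS, EPS and LPHS, against 9.28, 12.1 and 21.4 in S2. Every S2 value lay below every S1 value, and the fitted difference was -5.07 ± 0.28 (log2, SE; limma, adjusted p = 0.000439). In the other direction FBgn0146256 had 3.98, 4.25 and 8.08 in S1 and 93.9, 174 and 278 in S2. The sets did not overlap, and the difference was 4.75 ± 0.23 (log2, SE; limma, adjusted p = 0.000439). FBgn0145153 had 0, 17.8 and 8.98 in S1 and 197, 325 and 118 in S2, again without overlap (5.10 ± 0.69, log2, SE; limma, adjusted p = 0.00736). None of these genes has a symbol or a function in the tables used here, so they are given by identifier only.

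**Figure D2:**
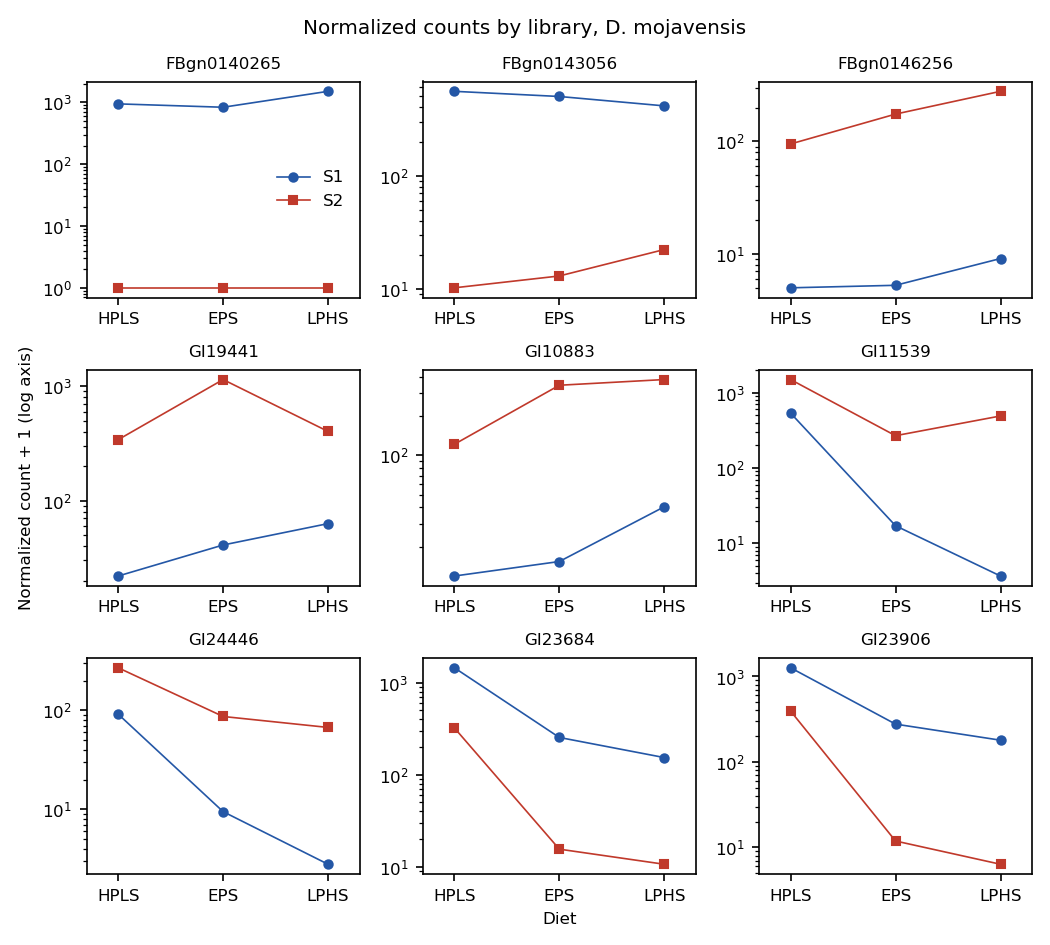
Normalized counts plus 1 on a logarithmic y axis by diet on the x axis, with 1 panel per gene, S1 libraries as blue circles and S2 libraries as red squares (1 library per point, lines join a set). FBgn0140265 is at 0 in the 3 S2 libraries, the red and blue points of GI19441 and GI10883 do not overlap, and in GI11539, GI24446, GI23684 and GI23906 the gap between the sets is narrowest on HPLS.

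Symbols could be given to 143 genes, of which 141 come from the study's own list of genes changed between diets, so the named genes were chosen by the authors on these same libraries and say nothing of genes outside that list. Of the 135 tested genes on that list, the values of the sets did not overlap in 5, beside 2927 of the 9724 tested genes (30.1%). These 5 included 3 of the larger differences towards S2. GI19441, annotated as gamma-butyrobetaine dioxygenase, an enzyme of carnitine synthesis, had 20.9, 39.9 and 61.9 normalized counts in S1 and 339, 1140.2 and 401 in S2 on HPLS, EPS and LPHS. All S2 values were above all S1 values (3.81 ± 0.35, log2, SE; limma, adjusted p = 0.00209). GI10883, which has no annotated domain, had 11, 14.4 and 39.5 in S1 and 121, 343 and 379 in S2. The sets did not overlap here either (3.69 ± 0.25, log2, SE; limma, adjusted p = 0.000904). GI19902, also without a domain, had 147, 155 and 228 in S1 against 504, 1070.2 and 1734 in S2, again without overlap (2.49 ± 0.22, log2, SE; limma, adjusted p = 0.00173).

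The other leading genes differed between the sets within each diet while the values overlapped across diets. GI11539, the ortholog of Fbp1, a fat body protein of *D. melanogaster* that serves as receptor for hexamerins, had 533, 16.1 and 2.69 normalized counts in S1 and 1487, 267 and 488 in S2. S2 was higher in each diet, by 1.48 (log2) on HPLS, 3.97 on EPS and 7.05 on LPHS (fitted 4.16 ± 0.85, SE; limma, adjusted p = 0.0247). GI24446, with the lipid-recognition domain of MD-2-related proteins and orthologous to Npc2d, had 90.6, 8.5 and 1.8 in S1 and 268, 85.8 and 66.3 in S2 (3.11 ± 0.49, log2, SE; limma, adjusted p = 0.011). Its gap widened in the same order of diets, from 1.56 through 3.19 to 4.59 (log2). GI10484, a stearoyl-CoA desaturase, which introduces a double bond into fatty acids, ran the other way: the difference was 2.07 on HPLS, 1.43 on EPS and 0.55 on LPHS (fitted 1.35 ± 0.25, SE; limma, adjusted p = 0.0183). GI13002, a cytochrome P450, was higher in S2 by 1.33 (log2; limma, adjusted p = 0.0112), and the ortholog of the immune-induced peptide IM23, GI19391, by 1.55 (log2; limma, adjusted p = 0.00225). With 1 library per set and diet, a difference of the gap between diets could not be tested.

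**Figure D3:**
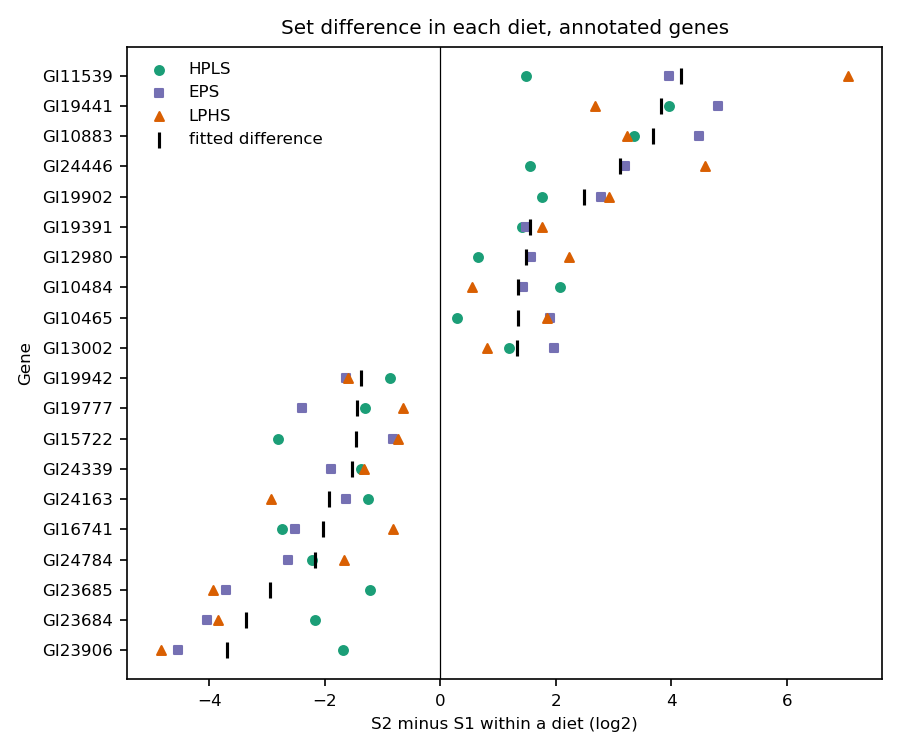
S2 minus S1 (log2, x axis) on HPLS (circles), EPS (squares) and LPHS (triangles) for the 10 annotated genes with the largest called difference in each direction, with the fitted difference as a black bar. Every point of a gene lies on 1 side of 0, which largely follows from the call. GI11539 has the widest range, from 1.48 on HPLS to 7.05 on LPHS.

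In the direction of S1, the largest differences among annotated genes were in proteins with a CHK kinase-like domain, a family that in insects is linked to the phosphorylation of ecdysteroids. GI23906 had 1264, 276 and 179 normalized counts in S1 and 393, 10.9 and 5.34 in S2 on HPLS, EPS and LPHS. S2 was lower in each diet (-3.68 ± 0.54, log2, SE; limma, adjusted p = 0.00903). GI23684 had 1454, 253 and 153 in S1 and 322, 14.5 and 9.62 in S2 (-3.35 ± 0.34, log2, SE; limma, adjusted p = 0.00261). GI23685 had 387, 138 and 112 in S1 and 166, 9.66 and 6.41 in S2 (-2.95 ± 0.48, log2, SE; limma, adjusted p = 0.0117). In these 3 genes the S2 value on HPLS overlapped the S1 range, and the sets were farthest apart on EPS and LPHS. How the counting shared reads between close copies of a family is not given in the sources used here, so the values of single members are uncertain to that extent.

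Of the 7 tested CHK kinase-like genes with a symbol, 5 were called lower in S2 and 0 higher, and their median was -0.94 (log2). All are on the study's list as lower with sugar, and members outside that list could not be identified here. Of the 83 tested genes listed as lower, these included, 28 were called lower in S2 and 13 higher, with a median of -0.33. The share called was 49.6% among the tested genes of the whole list. It was 13.2% among all tested genes, with a median of 0.01. The remaining listed members were picked after their values had been seen. GI23260 was lower by 0.94 and GI16169 by 0.87 on the log2 scale and both were called (limma, adjusted p = 0.00423 and 0.0096). GI22573, at -0.16 (adjusted p = 0.662), and GI23912, at -0.02 (adjusted p = 0.946), were not called by limma.

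Other annotated genes lower in S2 had unrelated functions. GI24163, the ortholog of Hsp68 in the Hsp70 family of chaperones, had 248, 329.6 and 865 normalized counts in S1 and 104, 106 and 113 in S2. The sets did not overlap and were farthest apart on LPHS, and the difference was -1.93 ± 0.29 (log2, SE; limma, adjusted p = 0.00942). GI24784, with the Kazal domain of peptidase inhibitors, had 229, 118 and 26 in S1 and 48.5, 18.1 and 7.48 in S2 (-2.18 ± 0.23, log2, SE; limma, adjusted p = 0.00304). GI24339, a muscle-type actin by its orthologs Act57B, Act87E and Act88F, had 7440.1, 4394 and 2057 in S1 and 2876, 1185 and 828 in S2. It was lower in S2 in each diet (-1.52 ± 0.13, log2, SE; limma, adjusted p = 0.00173). The sugar transporter-like GI16741 (-2.02, limma, adjusted p = 0.0175) and GI19942, a hexokinase orthologous to Hex-C, which phosphorylates glucose in the first step of glycolysis (-1.36, limma, adjusted p = 0.00873), were also lower.

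**Figure D4:**
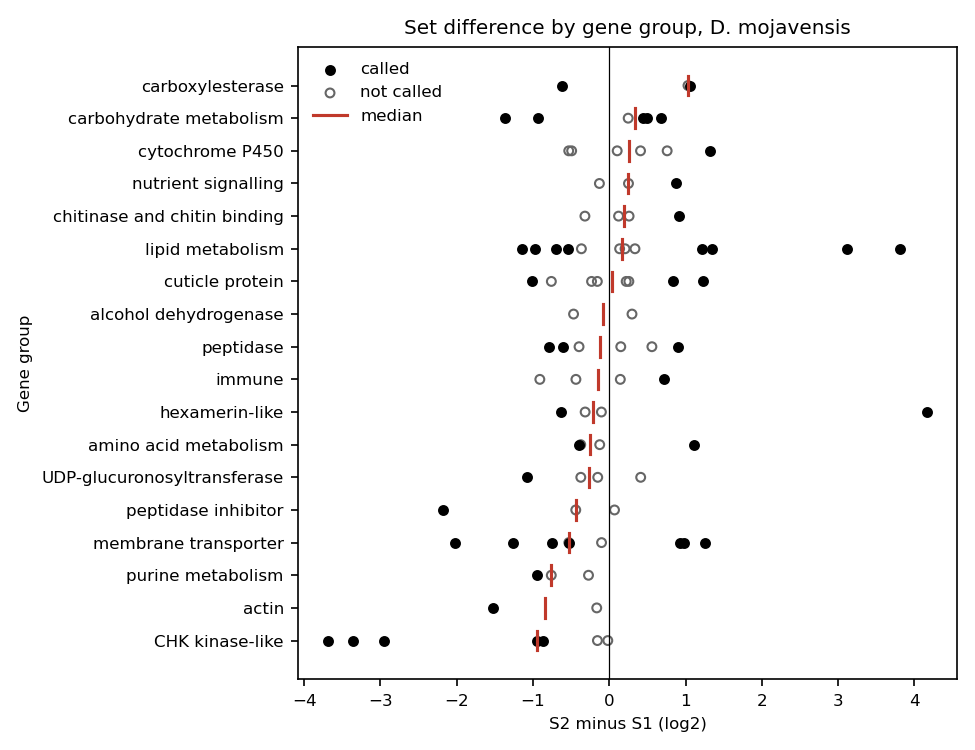
S2 minus S1 (log2, x axis) for each tested annotated gene, by functional group (y axis). Filled points were called, open points were not, and the red bar is the median of the group. All 7 annotated CHK kinase-like genes lie below 0, with a median of -0.94, while the 12 lipid metabolism genes spread from -1.14 to 3.81.

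Several functional groups held calls in both directions. These groups come from the study's list, of which 67 of 135 tested genes (49.6%) were called for the set, beside 13.2% of all tested genes, so the counts of a group are to be read against that share. Of 12 genes of lipid metabolism, 4 were called higher in S2, among them GI19441, GI24446 and GI10484, and 4 lower. Of 9 membrane transporters 3 were higher and 4 lower, and of 6 genes of carbohydrate metabolism 3 were higher and 2 lower. Of 8 cuticle proteins 2 were higher, GI20903 by 1.23 and GI20905 by 0.84 (log2), and 1 was lower, GI12994, at -1.02. The call of GI20905 was lost without either library on LPHS, at 0.49. GI20903 and GI12994 were picked after their values had been seen.

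In other groups the calls were as follows, beside the same shares. Among 6 cytochromes P450 1 was higher and 0 were lower, and among 4 glucuronosyltransferases 0 were higher and 1 was lower. Of 6 peptidases 1 was higher and 2 lower, and of 4 immune genes 1 was higher and 0 lower. GI19391, the IM23 ortholog called higher in S2, was not counted among these immune genes. Of 4 hexamerin-like genes 1 was higher, GI11539, and 1 lower, GI19287, at -0.63 (log2; limma, adjusted p = 0.0313). GI19287 is orthologous to PPO1, also has a tyrosinase copper-binding domain and was picked after its values had been seen. The 4 genes of amino acid metabolism held 1 call in each direction, the higher being GI12353, an argininosuccinate lyase picked after its values had been seen (1.11, limma, adjusted p = 0.00227). Of the 15 genes of the RT-qPCR panel, 5 were higher and 3 lower. The hexamerin GI23074 was not called (-0.10, limma, adjusted p = 0.569). Of the 3 genes of nutrient signalling, GI14996, an ortholog of the translation repressor Thor (4E-BP), was higher in S2 by 0.87 ± 0.12 (log2, SE; limma, adjusted p = 0.0069). The other Thor ortholog, GI15007, was at 0.25 (adjusted p = 0.498) and GI19975, the ortholog of sugarbabe, at -0.13 (adjusted p = 0.584), and limma called neither.

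The alcohol dehydrogenases, with which cactus flies metabolise the alcohols of rotting tissue, did not pass the test. Adh1 had 11587, 4531 and 2191 normalized counts in S1 and 9220.3, 6597 and 3507 in S2 (0.30, limma, adjusted p = 0.323). Adh2 had 42796, 36919.9 and 11079 in S1 and 59024, 19899.9 and 5619 in S2 (-0.47, limma, adjusted p = 0.264). On HPLS the sign was the opposite of that on the other diets in both genes, and without either library on HPLS both were called, Adh1 at 0.61 and Adh2 at -0.94 (log2). Xanthine dehydrogenase (Xdh), of purine breakdown, was at -0.76 (adjusted p = 0.0533) with all libraries and was called at -1.08 without either of them.

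In the same fit, with all 6 libraries, fewer genes were called for the diets than for the set. This order turned without a library on EPS, with 390 set calls against 521 for LPHS minus HPLS without the S1 library and 537 against 655 without the S2 library. For LPHS minus HPLS 544 genes (5.59%) were called by limma, 252 higher on LPHS and 292 lower, and for EPS minus HPLS 18 (0.185%), 13 higher and 5 lower. For LPHS minus EPS limma called 0, as did edgeR by quasi-likelihood, whereas DESeq2 called 38. In that contrast 853 genes had an unadjusted p under 0.05 by limma. The counts of both contrasts with EPS were unstable. For EPS minus HPLS DESeq2 called 84 genes, and limma called 165 and 69 without the S1 or the S2 library on HPLS, 208 and 209 without the S1 or the S2 library on LPHS, and 9 with a mean of at least 50. For LPHS minus EPS limma called 19 and 18 without the S1 or the S2 library on HPLS, 36 and 68 without those on LPHS, and 0 and 18 without those on EPS. The set term rests on 3 libraries against 3 and each diet term on 2 against 2, so these counts come from unequal precision. The median difference of the called genes was 1 (log2) for LPHS minus HPLS and 0.73 for the set. A less precise term needs a larger difference for a call, so these medians do not compare the sizes of the effects. Over all tested genes the medians were close, at 0.24 for both terms, and the set difference was the larger in 4975 genes (51.2%). Noise enlarges absolute differences, and more so in the less precise diet term, so these values do not rank the terms either. Without the S1 library on HPLS the diet count was 1592, and without the set in the model it was 2.

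Summed over genes, the set took 47.1% of the squared deviations of the log2 values, the diet 35.7% and the remainder 17.2%. Genes with large differences weigh most in these sums, and the diet has more levels than the set. Gene by gene, the set had a larger sum of squares than the diet in 4717 of the 9724 tested genes. The share of the set was 67.4% without the HPLS pair of libraries, 45.6% without the EPS pair and 59.3% without the LPHS pair. Leaving out a pair also changes which diets are compared. HPLS and LPHS, the most contrasting diets, remain together only without the EPS pair, so these shares are not measured against a like diet term. The first principal component (48.2% of the variance) placed the S1 libraries at -29.33 (HPLS), -26.63 (EPS) and -21.92 (LPHS), and the S2 libraries at 15.12, 29.01 and 33.76. The second (28.5%) ordered the diets in both sets, with the HPLS libraries at 16.24 in S1 and 32.71 in S2, the EPS libraries at -0.14 and -1.28, and the LPHS libraries at -29.08 and -18.44. The sets were thus apart on the first component, and the S2 library on HPLS lay closest to S1.

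**Figure D5:**
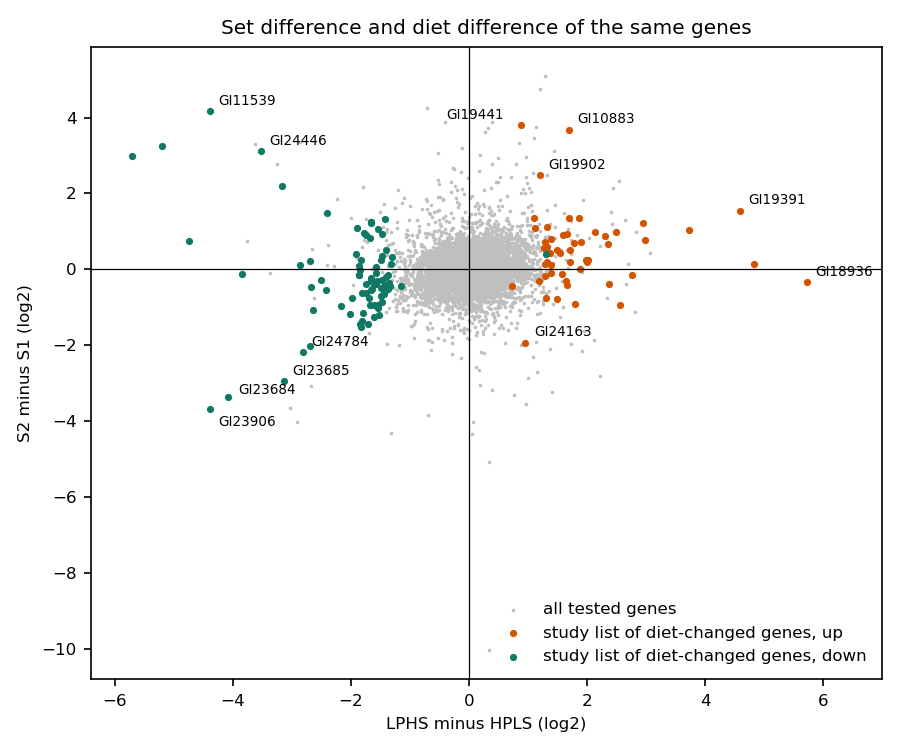
Each point is a tested gene, with its LPHS minus HPLS difference (log2) on the x axis and its S2 minus S1 difference (log2) on the y axis. Orange and green points are the genes the study listed as changed up or down between diets. GI18936 lies far along the diet axis (5.73) near 0 on the set axis (-0.33), GI19441 has the opposite placing (0.88 and 3.81), and GI23906 is low on both (-4.39 and -3.68).

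Both terms were called in 205 genes, 15.9% of the genes called for the set and 37.7% of those called for LPHS minus HPLS. The 2 terms share all 6 libraries and their residual spread, so a gene measured with little noise can pass both, and nothing further is read from this overlap. Of the 205 genes, 67 were higher in S2 and on LPHS, 88 lower in both, 29 higher in S2 and lower on LPHS, and 21 the reverse. The set difference was the larger in 34 of them. Among all 1288 genes called for the set it was the larger in 1060, which largely follows from choosing genes by the set difference. Over all tested genes the set difference was the larger in 51.2%.

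Named genes illustrate each placing. The 3 large CHK kinase-like differences went with large falls on sugar, with LPHS minus HPLS at -4.39 in GI23906, -4.09 in GI23684 and -3.14 in GI23685 (log2), all called by limma. GI24446 was called in opposite directions, 3.11 for the set and -3.52 for the diet. GI19391 was called higher in both, 1.55 for the set and 4.59 for the diet. GI19441 and GI24163 were called for the set but not for LPHS minus HPLS (0.88 and 0.96, limma, adjusted p = 0.275 and 0.169). GI23074 was called for the diet, at -1.57, and not for the set. Of the 135 tested genes on the study's list, 67 were called for the set, and the set difference was larger than the diet difference in 5. The list was chosen for diet changes in these libraries, so its 121 diet calls are no independent evidence.

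Listed genes called for the set were mostly displaced towards the side that sugar moved them. Of the 52 genes listed as up with sugar, 22 were called higher in S2 and 4 lower, with a median of 0.47 (log2). Of the 83 tested genes listed as down, 13 were higher and 28 lower, with a median of -0.33. The median over all tested genes was 0.01. Since the list was selected on the contrast of the same libraries, these counts are a description of the list.

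The diet change can also be given for each set on its own. Among the 544 genes called for LPHS minus HPLS, which were chosen on both sets together, the median absolute change was 0.89 (log2) in S1 and 1.07 in S2, and it was the larger in S2 in 337 genes and in S1 in 207. Over all tested genes the medians were 0.24 in S1 and 0.32 in S2. In GI23906 the fall from HPLS to LPHS was -2.82 in S1 and -5.96 in S2 (log2), and in GI11539 it was -7.18 and -1.60. Opposite changes of at least 2-fold in the sets were found in 26 tested genes, 13 of them up in S1 and down in S2 and 13 the reverse. S2 was sequenced less deeply, and each of these changes compares 1 library with 1, so none was tested.

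Some genes were near 0 in the S1 library on LPHS alone. GI14785 had 441, 196 and 0.898 normalized counts in S1 and 1646, 299.6 and 282 in S2 on HPLS, EPS and LPHS. GI17572 had 504, 488 and 0 in S1 and 1607, 252 and 297 in S2. Both have no annotated domain and were picked after their values had been seen. With GI11539, at 2.69 in that library against 488 in S2, they were near 0 in S1 on LPHS and at 282 to 488 normalized counts in S2 on the same diet. The fitted differences, 3.24 ± 1.07 in GI14785 and 2.98 ± 1.44 in GI17572 (log2, SE), did not pass the test (limma, adjusted p = 0.0886 and 0.205).

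The same fit was run in the other species of the series to place these counts. S2 minus S1 gave 1948 calls among 12324 tested genes of *D. melanogaster* (15.8%) and 975 among 9696 of *D. arizonae* (10.1%), beside 13.2% in *D. mojavensis*. The median absolute difference was 0.32 and 0.28 (log2), beside 0.24. For LPHS minus HPLS limma called 0 genes in *D. melanogaster*, with 942 at an unadjusted p under 0.05, and 78 in *D. arizonae*, beside 544 in *D. mojavensis*. No test between species was made, and the libraries of the 3 species differ in depth.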

How the data were processed

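RNA from pooled whole larvae was sequenced in 6 *D. mojavensis* libraries. The authors mapped read pairs with TopHat2 and Bowtie2 and counted fragments per gene with Cufflinks and Cuffdiff. Their versions are not given in the sources used here. The deposited values are a signal per gene and library, not whole numbers: 100% of values above 0 lay near a whole multiple of 1 step per library, and division by it returned fragments. The margin was 0.01 steps, widened in proportion to the value for high counts, so the highest counts were not checked that closely. Because the deposited signal is not a count, limma (3.58.1) was the main test, on log2 of the TMM-scaled value plus 1, with a variance trend and with diet and set as terms. TMM factors and filterByExpr (minimum count 10, diet as group) came from edgeR (4.0.16). Fold changes on this scale understate low genes. Depth was 6819502 to 9910492 fragments, so genes of a few fragments were not tested. P-values were adjusted by Benjamini-Hochberg over all tested genes, and 0.05 was the limit for a call.

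Sets were paired by diet. S2 minus S1 differences correlated across genes at 0.571 (HPLS and EPS), 0.518 (HPLS and LPHS) and 0.702 (EPS and LPHS), mean 0.597. Part of the set difference was thus shared between diets, which does not show what the set numbers stand for. The quasi-likelihood test of edgeR and DESeq2 (1.42.0) were run on recovered fragments as alternatives, with other scalings, pseudocounts and filters and with each library left out. Scripts were tested on simulated data. R was 4.3.3 and Python 3.11.15.

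The members and lists were chosen with earlier results of these data known. Genes given by name were the called genes with the largest differences (up to 10 in each direction, of all genes with a mean of at least 50 and of annotated genes), on/off genes, the 15 RT-qPCR genes of the study, the 5 highest called genes in each direction and the 5 with the largest effect for both set and diet. Symbols, domains and orthologs were taken from the supplementary tables of the study for 143 of 15180 identifiers. The rule picked 57 genes, 34 with a symbol, and of those without one only 4 are printed. Sequences and positions were not used here. Not every gene that the rule picked is reported here.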

Additional observations from a re-analysis of the deposited data

Results flagged for a closer look

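The diet change of FBgn0145153 had opposite signs in the sets: LPHS minus HPLS was 3.32 (log2) in S1, from 0 to 8.98 normalized counts, and -0.74 in S2, from 197 to 118. FBgn0143056 moved by -0.43 in S1, from 554 to 412, and by 1.12 in S2, from 9.28 to 21.4. Each value compares 1 library with 1, and these differences between the sets were not tested.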

How the results depend on the processing

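S2 minus S1 gave 1288 calls, and 351 with an absolute log2 difference of at least 1 also required. It gave 2951 without scaling and 429 without the diet term. Without the HPLS pair, an alternative chosen after seeing the data, it gave 2635. Leaving out 1 library gave 390 to 2153, both HPLS libraries raising the count and both EPS libraries lowering it. The other counts were within 1.5 times: 1289 with RLE scaling, 1276 and 1305 with pseudocounts of 0.5 and 5, 1201 without a filter, 1086 with a mean of at least 50, 1288 with the quasi-likelihood test (1251 shared genes) and 885 with DESeq2. For the diets, the pairing mattered: with no replicate block LPHS-HPLS fell from 544 to 2 calls and EPS-HPLS from 18 to 0, and with edgeR and no replicate block (chosen after seeing the data) both were 0. Leaving out 1 library gave 444 to 1592 for LPHS-HPLS, 23 to 209 for EPS-HPLS, which was at least 69 without any one HPLS or LPHS library, and 0 to 68 for LPHS-EPS, which was 0 only without the S1 library on EPS. EPS-HPLS was also 9 with a mean of at least 50 and 84 with DESeq2, which called 38 in LPHS-EPS. On/off genes numbered 4 at 5 fragments and 3 with up to 3 fragments allowed in the set called off. Genes with the same direction in all diets numbered 738 at a log2 difference of 0.5 and 39 at 2. The median absolute difference was 0.22 with a mean of at least 50. Of 38 named genes under 16 settings, 546 of 607 values kept their direction and side of the threshold, 44 lost the call, 23 of them without the diet term, 12 gained it and 5 reversed, in 2 genes that were not called. GI15007 was -0.01 without scaling. GI20954 was 0.04 with edgeR, 0.21 without either HPLS library and 0.20 without that pair, against -0.15 with all libraries, and leaving out 1 library gave -0.34 to 0.21. The causes were not tested. At 6819502 to 9910492 fragments, genes at a few fragments cannot be told from absent ones.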

Other observations

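Of the 89 genes the study listed as lower with sugar, 6 did not pass the filter on low values, which asks for enough fragments in more than 1 library, and nearly all of their counts lay in the S2 library on HPLS. That library held 59.8 normalized counts of GI23002, 56.7 of GI10665, 54.7 of GI11690 and 36.1 of GI16548, and 13.4 each of GI13531 and GI24597. In the S1 library on the same diet these genes were at 1.99, 0, 1.99, 0, 0 and 0 normalized counts. GI16548 has a GYR motif, a short tyrosine-rich repeat, and the other 5 have no annotated domain. At 10 or more fragments, 2 genes were present in that library and at 0 fragments in the other 5, the higher of them with 35 fragments, and 0 genes were so in any other library. These genes were picked after their values had been seen.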
